A study of Sus scrofa with 6 samples.

Results

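Histone chaperones are proteins that bind histones outside the nucleosome, carry them to the nucleus and hand them to DNA. The genes described here are 10 such factors of the pig, listed by name: SSRP1, SUPT16H, NASP, ASF1A, ASF1B, CHAF1A, CHAF1B, HIRA, DAXX and NAP1L1. In the series table of 30376 genes, 9 of the 10 had a row under that symbol. HIRA had none, and the 1 row whose product was named protein HIRA (LOC100152722) was taken for it. All 10 passed the filter on low counts.

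The study sequenced poly(A) RNA of pig embryos at the 4-cell stage, grown from oocytes activated by electrical pulses and cultured for 4 days. Control embryos were held at 38.5 °C (3 libraries) and high-temperature embryos at 41.5 °C (3 libraries), and the stated question was how high temperature affects activation of the embryonic genome. The labels name no allele, strain or age, enter the genotype as WT for controls and HT for the heated group, and speak of about 300 4-cell embryos in the lysate without saying whether that number went into each library. Nothing in them says that the replicates were separate cultures, so the p-values are set against a spread between libraries that may be technical.

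As background, new histones H3 and H4 are shielded in the cytosol by NASP and pass through ASF1A or ASF1B to a depositing factor. The CAF-1 complex, built on CHAF1A and CHAF1B, deposits them behind the replication fork, where it is held by the sliding clamp PCNA. HIRA and the pair of DAXX and ATRX deposit the variant H3.3 independently of replication. FACT, a dimer of SUPT16H and SSRP1, loosens and restores nucleosomes in front of polymerases, and NAP1L1 handles histones H2A and H2B. In an early embryo these factors are largely supplied by the oocyte and serve cell division and the rebuilding of chromatin before and during genome activation.

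The libraries held 28114005 to 30079385 counted reads. All 14 oocyte and early embryo markers were detected in every library (GDF9, BMP15, zona pellucida genes and others, summed at 3604 to 4236 CPM, counts scaled to the library total), and the cumulus and granulosa markers FSHR, CYP11A1, AMH, INHA and FOXL2 were at 0 in all 6. Others of that list had reads in every library: INHBA (119 to 283), GATM (47 to 109), TNFAIP6 (40 to 91), STAR (15 to 63), CYP19A1 (7 to 14) and PTX3 (3 to 10). Of its 15 markers 14 had a row, and their sum was 11.6 to 14.7 CPM in controls and 16.4 to 16.7 at high temperature. The stromal and blood markers (12 of 13 with a row) summed to 10.8 to 14.9 and 11.3 to 12.8. Replicate 1 of both groups stood apart in its transcripts of ribosomal proteins, which took 1.39% of the counts of control replicate 1 and 1.23% of high-temperature replicate 1, against 0.573% to 0.849% in the other 4 libraries. Mitochondrial mRNAs took 21.0% to 23.6% of the counts in controls and 23.8% to 26.7% at high temperature. Neither they nor the cumulus markers overlapped between the groups, and their part in the differences given here was not tested. In such bulk samples fewer cells of a kind and less RNA in each cell cannot be told apart.

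Among themselves the 10 transcripts spanned a wide range of levels, compared here in TPM, a unit scaled for gene length and library size. The histone H3-H4 carrier NASP averaged 84.2 ± 22.4 TPM (SD over all 6 libraries) and the H2A-H2B carrier NAP1L1 69.5 ± 37.4 TPM. SUPT16H followed at 33.7 ± 2.15, ASF1A at 28.0 ± 5.71, ASF1B at 15.7 ± 4.18 and SSRP1 at 12.4 ± 1.98 TPM. The CAF-1 subunits were at 6.72 ± 2.06 TPM for CHAF1A and 1.74 ± 0.592 TPM for CHAF1B. DAXX and HIRA, which serve H3.3, were the lowest of the 10, at 0.847 ± 0.212 and 0.622 ± 0.0785 TPM.

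Ranges of TPM over the 6 libraries separated only 3 neighbouring pairs in this order, ASF1A from ASF1B, SSRP1 from CHAF1A and CHAF1A from CHAF1B. All other neighbours overlapped. NASP exceeded NAP1L1 in 4 of 6 libraries, while in replicate 1 of both groups NAP1L1 was the higher of the pair (121 against 53.4 TPM in the control and 109 against 66.8 TPM in the heated library). SUPT16H exceeded ASF1A in 5 of 6 libraries, and ASF1B exceeded SSRP1 in 5 of 6.

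**Figure D1:**
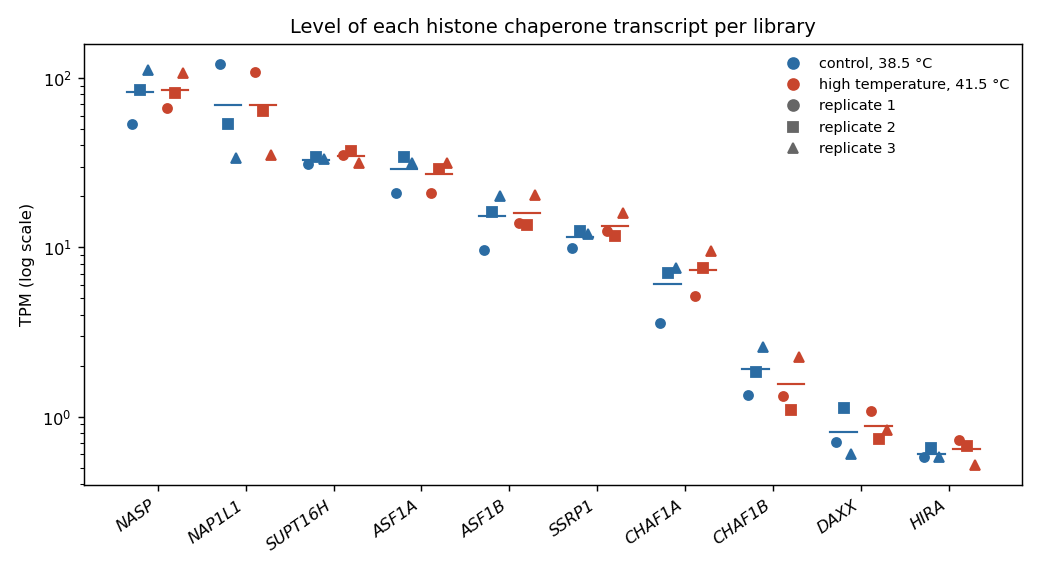
TPM of the 10 transcripts (vertical axis, log scale) in each library, ordered by their mean over all libraries. Colours give the culture temperature, marker shapes the replicate number and short lines the mean of each group (n = 3). The level falls from 84.2 TPM for NASP to 0.622 TPM for HIRA, and NAP1L1 has the widest spread.

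None of the 10 transcripts changed detectably between embryos kept at 41.5 °C and at 38.5 °C. For every one of them the libraries of the 2 groups overlapped. In the edgeR quasi-likelihood test across 16056 genes no gene passed an adjusted p of 0.05 (0.0%), with 297 genes at an unadjusted p below 0.05, of which 0 were histone chaperones of this list, and DESeq2 called 6 genes, again none of the 10. Those 297 genes were a smaller share of the genes tested than the 0.05 that such a threshold passes where nothing differs. With so few, 0 of the 10 is no result about these genes. The adjusted p was 0.999923 for each of the 10, which does not show equal levels. The log2 fold change (heated over control) was above 0 for 4 and below 0 for 6, with a median of -0.01 beside -0.02 over all genes tested. The median of the 10 was above 0 without control replicate 1 or 2 or high-temperature replicate 2 or 3, at most 0.08. Of the 6 lower genes SUPT16H, NASP and ASF1B were above 0 in CPM without TMM factors and in TPM, and NAP1L1 was above 0 in TPM.

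Libraries of the 2 groups did not overlap in CPM scaled with TMM factors (the scale of all CPM values from here on) for 0 of the 10 against 1238 of the 16056 genes (7.71%). Those genes split into 588 higher and 650 lower at high temperature. The split moved to 841 and 342 in CPM without TMM factors and to 796 and 365 in TPM, and none of the 10 separated on either scale. The 95% interval of the fold change lay inside a 2-fold change in both directions for 8 of the 10, where 49.7% of all tested genes had so narrow an interval. NAP1L1 and CHAF1B were the exceptions. With the replicate number as a further term of the fit, all 10 lay inside it, beside 69.3% of all tested genes. The interval was then -0.42 to 0.29 for NAP1L1 and -0.84 to 0.03 for CHAF1B.

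**Figure D2:**
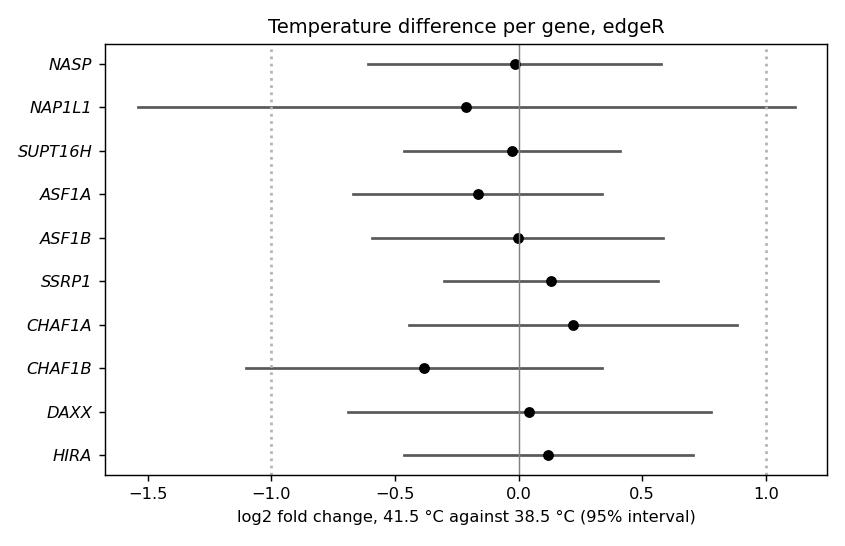
Log2 fold change of each gene at 41.5 °C against 38.5 °C (points) with its 95% interval (bars) from edgeR, 3 libraries a group. Dotted lines mark a 2-fold change in either direction. Every interval holds 0, and those of NAP1L1 and CHAF1B reach past a 2-fold decrease.

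NASP, the carrier of the soluble H3-H4 reserve, was at 142, 197 and 249 CPM in control replicates 1, 2 and 3 and at 157, 196 and 230 CPM in high-temperature replicates 1, 2 and 3. Replicate 1 was the lowest and replicate 3 the highest library of both groups. The group means were 196 ± 53.3 and 194 ± 36.8 CPM (SD, n = 3), a log2 fold change of -0.02 (standard error 0.26, 95% interval -0.61 to 0.58). The value was 0.19 if control replicate 3 was left out, and 0.12 leaving out high-temperature replicate 1.

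NAP1L1, a nucleosome assembly protein that shuttles H2A and H2B, showed the widest spread of the 10. It was at 308, 111 and 69.5 CPM in the controls and at 215, 135 and 71.9 CPM in the heated libraries. Replicate 1 was the highest and replicate 3 the lowest in both groups, opposite to NASP, so that the ratio of NAP1L1 to NASP in TPM ran from 2.27 in control replicate 1 to 0.303 in control replicate 3 and from 1.63 to 0.328 in the same libraries of the heated group. Within a group the highest library exceeded the lowest 4.43-fold in controls and 2.99-fold at high temperature.

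Between the groups NAP1L1 averaged 163 ± 127 and 141 ± 71.7 CPM (SD, n = 3), a log2 fold change of -0.21 (standard error 0.58, interval -1.54 to 1.12). It was 0.64 if control replicate 1 was left out, and 0.14 leaving out high-temperature replicate 3. The transcripts of ribosomal proteins were also highest in replicate 1 and lowest in replicate 3 of both groups (1.39%, 0.787% and 0.588% of counts in controls, 1.23%, 0.849% and 0.573% at high temperature), and their part in the NAP1L1 values was not tested.

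The genes whose CPM followed NAP1L1 most closely over the 6 libraries were RPL31, RPS25 and PSMA6. The first pair encodes ribosomal proteins and the last a subunit of the proteasome core. The root mean square difference of their centred log2 values from NAP1L1 was 0.05 for RPL31 and 0.06 for RPS25 and for PSMA6, against a median of 0.79 over the 6834 genes compared. These genes were picked as those with the smallest differences, so values far below the median follow from the choice. A link to NAP1L1 was not tested. RPS25 was at 312, 112 and 74.7 CPM in the control libraries, against 239, 139 and 79.3 CPM in the heated ones.

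The other NAP1 family genes had fewer reads and a narrower spread. NAP1L4 was at 29.9, 28.1 and 30.0 CPM in the control libraries, against 32.3, 36.2 and 31.1 CPM in the heated ones, higher in all 3 heated libraries on each of the 3 scales (log2 fold change 0.18, edgeR unadjusted p = 0.354, adjusted p = 0.999923). NAP1L3 was at 15.7 to 17.3 CPM in controls and below each of them in the heated libraries, at 13.8 to 15.7 CPM, and its groups overlapped in TPM and in CPM without TMM factors; it overlaps FAM133A, so its reads are uncertain. NAP1L1 accounted for 87.1% of the summed counts of NAP1L1, NAP1L3, NAP1L4 and NAP1L5 (at most 2 reads a library) in control replicate 1 and for 59.5% in control replicate 3, and for 82.3% and 60.6% in the same heated libraries.

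**Figure D3:**
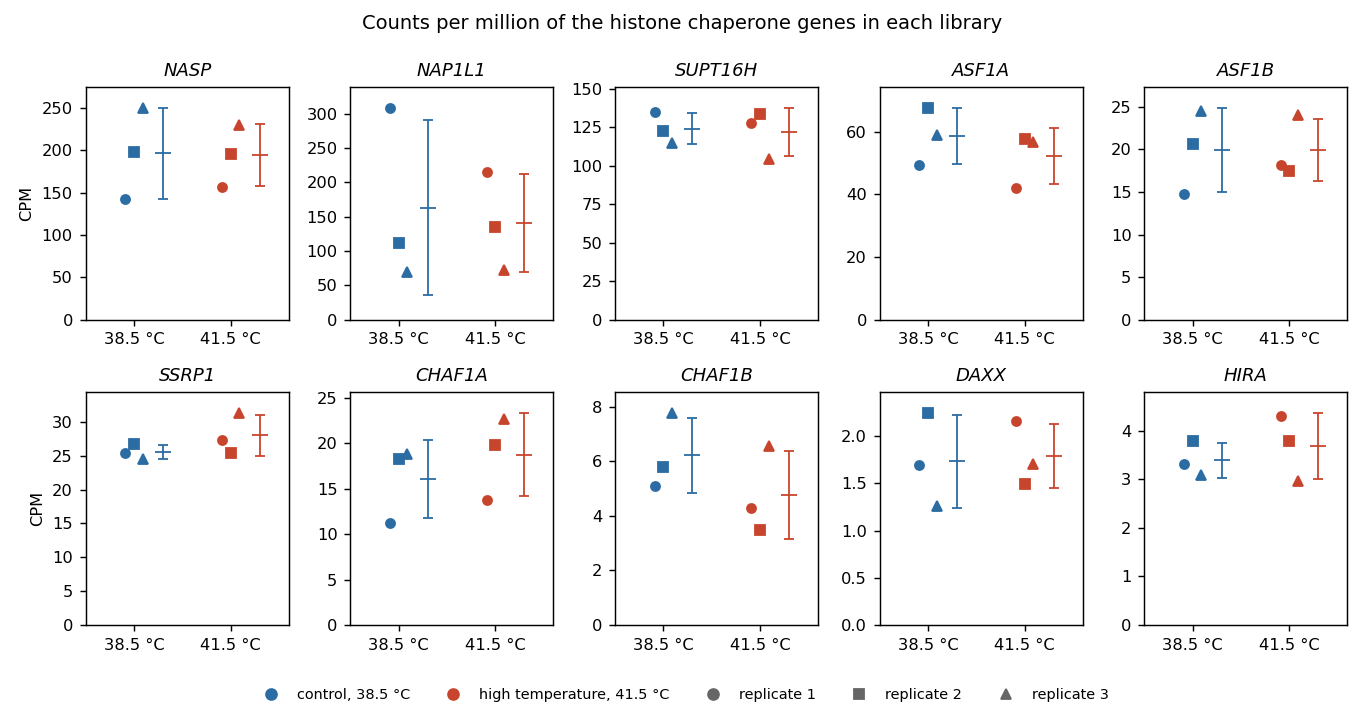
TMM-scaled CPM of each gene (vertical axes, linear, from 0) in the 3 control and 3 high-temperature libraries. Points are libraries, shapes give the replicate number, and bars show the mean ± SD of each group. In NAP1L1 replicate 1 is the highest library of both groups, at 308 and 215 CPM, and in NASP it is the lowest, at 142 and 157 CPM.

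ASF1A and ASF1B, the paralogs that hand H3-H4 to the depositing complexes, differed in level but not detectably between temperatures. ASF1A was at 49.5, 67.4 and 58.9 CPM in the control libraries, against 42.1, 57.8 and 56.9 CPM in the heated ones, with replicate 1 lowest and replicate 2 highest in both groups. Its log2 fold change was -0.17 (standard error 0.22, interval -0.67 to 0.34), which was -0.03 without high-temperature replicate 1, -0.05 without control replicate 2 and -0.27 without control replicate 1. ASF1B was at 14.7, 20.6 and 24.5 CPM in the control libraries, against 18.1, 17.5 and 24.1 CPM in the heated ones, with replicate 3 highest in both groups.

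The fold change of ASF1B was -0.0036 on the log2 scale (standard error 0.26, interval -0.59 to 0.59). Its sign changed without any of 4 libraries, at 0.02 without control replicate 2, 0.17 without control replicate 3, and 0.06 and 0.08 without high-temperature replicates 1 and 2. The ratio of ASF1A to ASF1B in TPM was 2.18, 2.12 and 1.56 in controls and 1.5, 2.14 and 1.53 at high temperature, overlapping between the groups (exact permutation test, two-sided p = 0.3, adjusted over 4 ratios 0.6). ASF1A lies wholly within the span of MCM9, a helicase gene with 542 to 838 counts a library, and the library kit does not mark strand. The sum of both had a log2 fold change of -0.12 (interval -0.52 to 0.29).

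Neither CAF-1 subunit passed the test, and their mean values differed in opposite directions. CHAF1A, the large subunit that binds PCNA, was at 11.2, 18.3 and 18.8 CPM in the control libraries, against 13.7, 19.8 and 22.7 CPM in the heated ones. CHAF1B, the WD-repeat subunit, was at 5.12, 5.79 and 7.77 CPM in the control libraries, against 4.28, 3.47 and 6.57 CPM in the heated ones. Both genes overlapped between the groups, and replicate 1 was the lowest library of both groups for CHAF1A and replicate 3 the highest for both genes. The log2 fold change was 0.22 for CHAF1A (standard error 0.29, interval -0.44 to 0.88) and -0.38 for CHAF1B (0.31, -1.10 to 0.34). Single libraries moved both: CHAF1A was at 0.015 without control replicate 1, 0.085 without high-temperature replicate 3 and up to 0.40 without high-temperature replicate 1. CHAF1B was at -0.19 without control replicate 3, -0.20 without high-temperature replicate 2 and -0.65 without high-temperature replicate 3.

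Of the ratios between subunits and paralogs taken within each library, only CHAF1A to CHAF1B did not overlap between the groups in TPM. In TPM it was 2.65, 3.82 and 2.92 in controls and 3.88, 6.92 and 4.17 at high temperature. The means were 3.13 ± 0.609 and 4.99 ± 1.67 (SD, n = 3), a difference of 0.64 on the log2 scale. The exact permutation test gave a two-sided p of 0.1, which is the least that 3 libraries a group can give, and 0.4 adjusted over the 4 ratios tested, so it did not pass.

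The gap between the groups was narrow. The highest control and the lowest heated library were at 3.82 and 3.88, and at 3.15 and 3.21 when the ratio was taken in CPM. With 1 added to each TPM the log2 difference was 0.47 (exact permutation test, two-sided p = 0.2). Groups that do not overlap would give 0.1 there, so they overlapped on that scale. Without high-temperature replicate 2, the library at 6.92, the log2 difference was 0.38. CHAF1B rested on 100 to 234 reads a library and CHAF1A on 291 to 694.

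With group as the only term, the subunits of FACT had the most narrowly estimated temperature differences, and both intervals held 0. SUPT16H, its large subunit, was at 135, 123 and 115 CPM in the control libraries, against 128, 134 and 104 CPM in the heated ones, with replicate 3 lowest in both groups. SSRP1, the subunit with a high mobility group domain, was at 25.4, 26.7 and 24.6 CPM in the control libraries, against 27.4, 25.4 and 31.3 CPM in the heated ones. Their log2 fold changes were -0.03 (standard error 0.19, interval -0.46 to 0.41) and 0.13 (0.19, -0.30 to 0.57), the narrowest intervals of the 10.

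Leaving out control replicate 1 or high-temperature replicate 3 turned the value of SUPT16H to 0.04 and 0.11. The ratio of SUPT16H to SSRP1 in TPM was 3.17, 2.75 and 2.78 in controls and 2.78, 3.15 and 1.98 at high temperature (exact permutation test, two-sided p = 0.7, adjusted 0.9). The lowest value was that of high-temperature replicate 3, and without it the log2 difference went from -0.16 to 0.03. The span of SUPT16H overlaps RPGRIP1 and LOC106504487 at its ends, with 2752 to 4131 and 90 to 153 counts a library. The sum of the 3 genes had a log2 fold change of 0.0037 (interval -0.41 to 0.42).

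HIRA and DAXX, which serve H3.3, rested on the fewest reads of the 10. HIRA had 86, 110 and 93 reads in controls and 126, 109 and 91 at high temperature, or 3.31, 3.79 and 3.09 against 4.31, 3.79 and 2.98 CPM. DAXX had 44, 65 and 38 reads in controls and 63, 43 and 52 at high temperature, or 1.69, 2.24 and 1.26 against 2.16, 1.49 and 1.70 CPM. The groups overlapped for both.

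The log2 fold change was 0.12 for HIRA (standard error 0.25, interval -0.47 to 0.70) and 0.04 for DAXX (0.32, -0.69 to 0.78). Without high-temperature replicate 1 it was -0.0078 for HIRA and -0.12 for DAXX, and without control replicate 3 it was -0.14 for DAXX. The sum of CHAF1A and CHAF1B exceeded that of HIRA and DAXX in every library, by 3.84, 4.96 and 8.62 times in controls and 3.59, 6.13 and 8.67 times at high temperature in TPM. Partners are left out on both sides, among them RBBP4 of CAF-1 (163 TPM over all libraries) and ATRX, which pairs with DAXX (30.5 TPM). The ratio thus compares these genes and not whole routes of deposition. Replicate 1 was lowest and replicate 3 highest in both groups, and the groups did not differ beyond that spread (exact permutation test, two-sided p = 0.9, adjusted 0.9). The log2 difference of 0.07 was -0.18 if control replicate 1 was left out, and -0.22 leaving out high-temperature replicate 3.

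**Figure D4:**
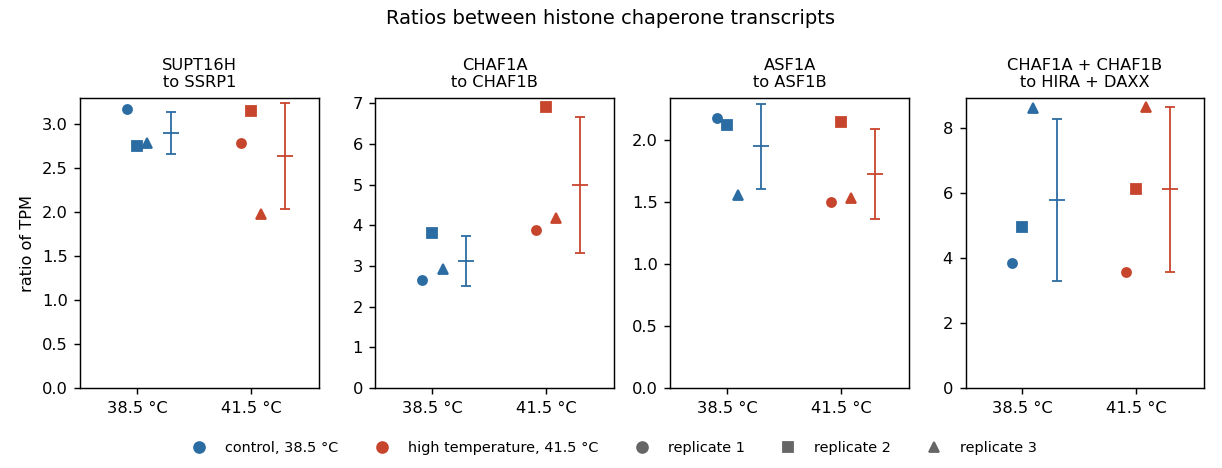
Ratios of TPM between subunits, between paralogs, and between the sums CHAF1A + CHAF1B and HIRA + DAXX (vertical axes, from 0) in each library. Points are libraries with shapes for the replicate number, and bars show the mean ± SD of each group (n = 3). The groups separate for CHAF1A to CHAF1B, at 2.65 to 3.82 in controls and 3.88 to 6.92 at high temperature, and overlap in the other 3 panels.

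Libraries with the same replicate number resembled each other across temperatures for part of these genes, as for part of all genes tested. The same number was highest in both groups for 6 of the 10, beside 9725 of all 16056 tested genes. The same number was lowest in both for 6 of the 10, beside 9891 of all tested genes. Both conditions were met by 4 (NASP, NAP1L1, ASF1A and CHAF1A), or 40.0% beside 44.3% of all tested genes. Of the variation of log2 CPM over the 6 libraries, differences between the numbers made up 96.7% for NASP, 95.2% for NAP1L1 and 87.9% for CHAF1A, and 33.9% for DAXX and 12.0% for SSRP1. The median over the 10 was 80.6%, beside 67.0% over all tested genes. The difference between temperatures made up a median of 5.02% over the 10 and 8.64% over all tested genes. What a replicate number shares is not given in the labels.

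Among 15 partners of these chaperones, none passed the test, with 4 higher and 11 lower at high temperature and a median log2 fold change of -0.12. That median was -0.01 in CPM without TMM factors and -0.01 to -0.02 on the FPKM and TPM scales. Leaving out control replicate 1 gave 0.02, and leaving out high-temperature replicate 3 gave -0.0043. PCNA, the sliding clamp that recruits CAF-1, had the highest level of them, 6209 TPM over all libraries. It was at 5172, 6749 and 6557 CPM in the control libraries, against 4040, 5132 and 4788 CPM in the heated ones. The heated libraries were all below the controls on this scale, but the groups overlapped in CPM without TMM factors and in TPM. The means were 6159 ± 861 and 4653 ± 558 CPM, a log2 fold change of -0.40 (standard error 0.19, interval -0.84 to 0.03, edgeR unadjusted p = 0.0625, adjusted p = 0.999923). Between libraries of the same replicate number the log2 difference was -0.36, -0.40 and -0.45. With the replicate number as a term the interval was -0.62 to -0.19 (edgeR unadjusted p = 0.0023, adjusted p = 0.317), so PCNA did not pass there either. Intervals of other genes named below (IPO4, TONSL and MMS22L) also lay off 0 with this term, and none of them passed.

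IPO4, the importin that brings H3-H4 with ASF1 into the nucleus, was at 3.46, 3.31 and 3.78 CPM in the control libraries, against 8.59, 5.87 and 4.77 CPM in the heated ones. All 3 heated libraries were above the controls on each of the 3 scales. Its log2 fold change was 0.86 (standard error 0.28, interval 0.21 to 1.51, edgeR unadjusted p = 0.0154, adjusted p = 0.999923) on 90 to 251 reads a library, and it was 0.60 without high-temperature replicate 1. The interval was 0.31 to 1.34 with the replicate number as a term (edgeR unadjusted p = 0.0055, adjusted p = 0.413). IPO4 overlaps TM9SF1, which had 4072 reads in all, so its reads are uncertain.

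HAT1, the acetyltransferase of new histone H4, was at 293, 152 and 113 CPM in the control libraries, against 200, 171 and 107 CPM in the heated ones (log2 fold change -0.22, 0.27 if control replicate 1 was left out, and 0.04 leaving out high-temperature replicate 3). The histone-binding proteins RBBP4, the third CAF-1 subunit, and RBBP7 were at 319 ± 76.7 and 442 ± 36.0 CPM in the control libraries, against 298 ± 42.3 and 390 ± 30.6 CPM in the heated ones (SD, n = 3). RBBP4, which overlaps the weakly covered SYNC, had a log2 fold change of -0.10, which was 0.10 if control replicate 1 was left out, and 0.04 leaving out high-temperature replicate 3. That of RBBP7 was -0.18.

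Of 25 other histone chaperones 24 had a row, 22 could be tested and none passed. With 9 higher and 13 lower the median was -0.04, and 0.06 without TMM factors, beside 0.08 over all genes tested. NPM1, the nucleolar chaperone of H2A and H2B, had the highest level of them (1279 TPM over all libraries), at 1749 ± 302 CPM in the control libraries, against 1591 ± 204 CPM in the heated ones (log2 fold change -0.14, and 0.0025 without control replicate 1). ANP32B was at 299 ± 37.6 and 305 ± 16.6 CPM (0.03, and -0.05 and -0.0055 without control replicate 1 and high-temperature replicate 2). TONSL, which reads new H4 behind the fork, was at 3, 5 and 7 reads in controls and 16, 16 and 15 reads at high temperature, higher in all 3 heated libraries on each scale. At so few reads its log2 fold change of 1.58 had an interval of 0.40 to 2.76 (edgeR unadjusted p = 0.0148, adjusted p = 0.999923). MMS22L, its binding partner, was the lower gene with the smallest p, at 237 ± 18.6 and 193 ± 43.2 CPM (log2 fold change -0.29, unadjusted p = 0.218), and overlaps KLHL32.

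The histones that these factors carry ranged widely in level, as far as they are polyadenylated, from 3375 TPM for H2AFZ, 1328 for H3F3A and 742 for H1FOO to 12.3 for CENPA and 2.17 for H2AFY. Of 12 such genes 5 had a row, and none passed, with 3 higher and 2 lower (median 0.06, and -0.03 and -0.05 without control replicate 2 and high-temperature replicate 3). H2AFZ, the variant H2A.Z, was at 3982, 2096 and 1680 CPM in the control libraries, against 3386, 2255 and 1295 CPM in the heated ones. H3F3A, a gene of H3.3, was at 728, 425 and 299 CPM in the control libraries, against 783, 470 and 259 CPM in the heated ones. Both were highest in replicate 1 and lowest in replicate 3 of each group, as was NAP1L1. The oocyte linker histone H1FOO, which is also on the oocyte list, ran the other way, at 330, 628 and 944 CPM in the control libraries, against 522, 678 and 991 CPM in the heated ones.

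Between the temperatures the log2 fold change was -0.16 for H2AFZ (interval -1.12 to 0.80), 0.06 for H3F3A (-0.97 to 1.08) and 0.20 for H1FOO (-0.70 to 1.11). Without control replicate 1 these were 0.29 for H2AFZ and -0.11 for H1FOO, without high-temperature replicate 3 they were 0.16 and -0.05, and H3F3A was at -0.03, -0.20 and -0.41 without control replicates 2 and 3 and high-temperature replicate 1. A further 6 histone genes were found only by product name after the values were seen, 4 of them testable and all 4 lower, with none past the test. The largest, LOC100521680 (product histone H3.3), was at 2319 ± 376 CPM in the control libraries, against 2212 ± 576 CPM in the heated ones, with overlapping groups.

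Of 7 genes that process replication-dependent histone mRNA 6 had a row, and none passed, with 4 higher and 2 lower (median 0.04, and -0.10 and -0.02 without control replicate 1 and high-temperature replicate 3). CASP8AP2 was at 752 ± 84.1 CPM in the control libraries, against 644 ± 110 CPM in the heated ones (log2 fold change -0.22), and LSM11, a subunit of the U7 particle that cuts the pre-mRNA, at 80.2 ± 16.9 and 87.3 ± 14.5 CPM (0.12, and -0.02 without control replicate 1).

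**Figure D5:**
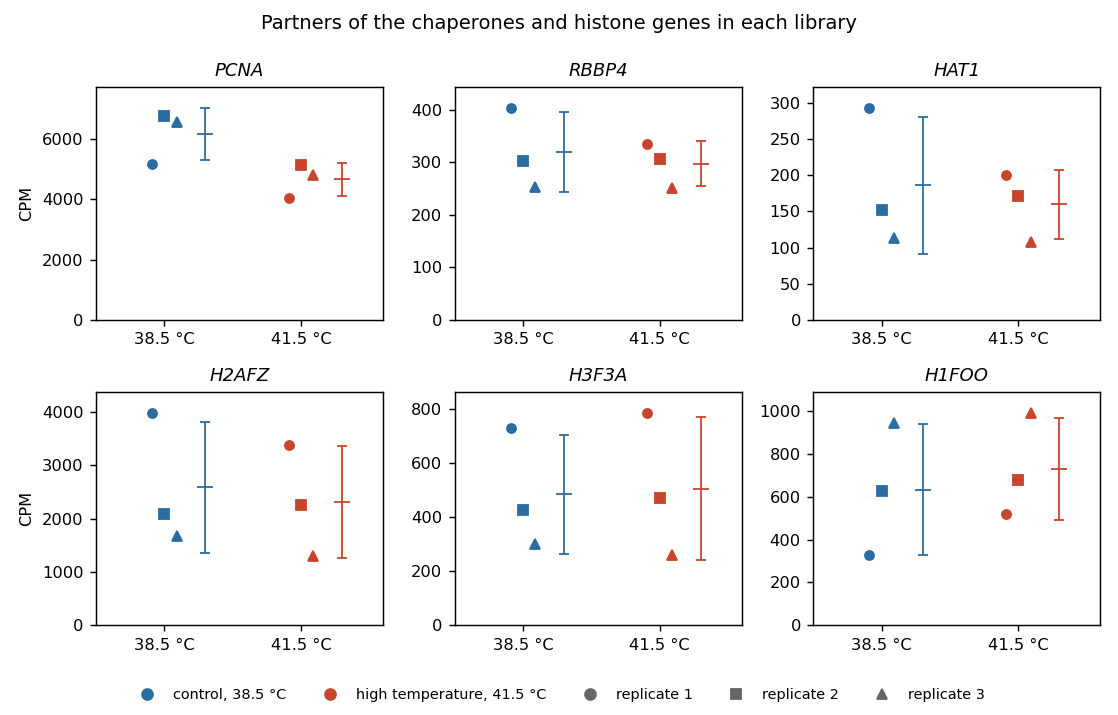
TMM-scaled CPM (vertical axes, linear, from 0) of 3 partners of the chaperones (PCNA, RBBP4, HAT1) and 3 histone genes (H2AFZ, H3F3A, H1FOO) in each library, with mean ± SD of each group (n = 3) and shapes for the replicate number. PCNA is at 5172 to 6749 CPM in controls and 4040 to 5132 CPM at high temperature, and H2AFZ and H3F3A are highest in replicate 1 of both groups.

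In the assembly Sscrofa11.1 SSRP1, ASF1B and CHAF1A lie on chromosome 2 (13619666 to 13629233, 65063186 to 65072681 and 74380706 to 74411875). SUPT16H and DAXX lie on chromosome 7 (77780968 to 77814519 and 29676854 to 29681145). ASF1A is on chromosome 1 (43200339 to 43215019), NAP1L1 on chromosome 5 (39329628 to 39363699) and NASP on chromosome 6 (165773964 to 165804978). CHAF1B is on chromosome 13 (200048096 to 200074902) and HIRA on chromosome 14 (51029117 to 51102409). Only SUPT16H and ASF1A overlapped another counted gene.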

How the data were processed

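Whole-number read counts were deposited by the authors for each gene, not normalized, per the file headers. FPKM and TPM from the authors stood beside them, per the file headers. Trimmomatic 0.38, HISAT2 2.1.0, Bowtie2, StringTie 2.1.3b and the assembly Sscrofa11.1 appear in the submitters' processing notes. Which program counted the reads, and how it treated genes that overlap, is not stated in the sources used here. Positions came from a RefSeq gene table of that assembly, matched by gene ID for 30352 of 30376 genes. FPKM of each column equalled the sample's own table within 1e-05 for 99.4% to 99.5% of genes, against at most 27.9% for another sample.

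The count test was edgeR (4.0.16, under R 4.3.3), quasi-likelihood, with TMM factors, the default filter on low counts (16056 genes kept), group as the only term and Benjamini-Hochberg adjustment at 0.05. It was checked on simulated data. Standard errors came from the F statistic, and shares of variation from log2(CPM + 0.5). Alternatives used DESeq2 1.42.0, limma 3.58.1, other scalings, no filter, and each library left out. Ratios were compared by exact permutation.

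The 10 genes, the gene lists and the tests were chosen with earlier results of these data known. The text names the 10 genes; from each other list the gene with the smallest p in each direction and those with a mean above 100 TPM; and the 3 genes most like the most variable of the 10 among genes with a symbol and at least 5 CPM. NAP1L3, NAP1L4 and the histone genes found by product were named after their values were seen. Outside this rule the text also names ATRX, NAP1L5, CENPA and H2AFY, the cell type markers and genes that overlap a named gene.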

Additional observations from a re-analysis of the deposited data

How the results depend on the processing

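No setting called any of the 10 genes: of 126 values under alternatives 0 were called and 31 had the other sign. Without TMM factors, on the FPKM and TPM scales and with any library left out, 0 genes were called in all. With so few calls among all genes, 0 of the 126 is no result about the 10. The main interval held 0 for each of the 10. With edgeR 0 genes were called in all, 6 with DESeq2, 1 when no low counts were filtered out and 3 under a replicate block (the replicate number as a term), none of them among the 10 (lowest adjusted p of the 10 with the block 0.557). Across genes the correlation of deviations from the group means was 0.642, -0.002 and 0.721 for replicates 1, 2 and 3. Deviations within a group sum to 0, so a library lying between the others of its group is near the mean. The value for replicate 2 therefore cannot decide whether same-numbered libraries are pairs. As the labels give no pairs, the main fit has group as its only term, with the block as an alternative. Replicates 1 and 3 of each group correlated best with their own number, while replicate 2 of the controls correlated best with replicate 3 (0.155) and replicate 2 of the heated group with replicate 1 (0.18).

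With the block NASP was at 0.0031 and ASF1B at 0.011. With no scaling beyond the library total, which moved the median of all genes from -0.02 to 0.08, SUPT16H was at 0.071, NASP at 0.061, ASF1B at 0.077 and RBBP4 at 0.0095. On log2(FPKM + 1), log2(TPM + 1) and log2(TPM + 0.1) SUPT16H was at 0.061, 0.059 and 0.061, NASP at 0.074, 0.072 and 0.073, ASF1B at 0.096, 0.096 and 0.10, NAP1L1 at 0.057, 0.055 and 0.056, and RBBP4 at 0.0095, 0.0068 and 0.0068. Summed with its overlapping genes SUPT16H was at 0.0037. The median of the 10 was 0.074 with no scaling, and that of the other chaperones 0.057, and 0.11, 0.080 and 0.082 on the FPKM and both TPM scales. Over all genes tested the median was 0.033, 0.039 and 0.048 on the latter scales. The log2 ratio of CHAF1A and CHAF1B to HIRA and DAXX, heated minus control, was -0.016 in CPM. Leaving out 1 library at a time gave -0.10 to 0.11 for SUPT16H, -0.20 to 0.19 for NASP, -0.18 to 0.17 for ASF1B, -0.0078 to 0.28 for HIRA, -0.14 to 0.27 for DAXX, -0.66 to 0.64 for NAP1L1, -0.27 to -0.03 for ASF1A, 0.015 to 0.40 for CHAF1A, -0.65 to -0.19 for CHAF1B and 0.075 to 0.20 for SSRP1. It gave -0.25 to 0.10 for RBBP4, -0.48 to 0.27 for HAT1, -0.054 to 0.13 for ANP32B, -0.25 to 0.0025 for NPM1, -0.41 to 0.48 for H3F3A, -0.54 to 0.29 for H2AFZ, -0.11 to 0.61 for H1FOO and -0.025 to 0.28 for LSM11. The median of the 10 was -0.020 to 0.080. The log2 ratio, heated minus control, was -0.30 to 0.032 for SUPT16H to SSRP1 and -0.22 to 0.41 for CAF-1 to HIRA and DAXX. For CHAF1A to CHAF1B this difference of the log2 ratio was 0.38 to 0.80 over the settings run. In TPM the groups did not overlap in that ratio, so leaving out 1 library could not turn its sign. Apart from the settings' own construction, the causes were not tested. DAXX (38 to 65 reads) and HIRA (86 to 126) had the fewest reads of the 10.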
